A study of Homo sapiens with 18 samples.

Results

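RNA of the PI3K, AKT and mTOR pathway was followed through 37 genes in spheroidal aggregates of a glioblastoma line and a medulloblastoma line, with and without a direct current electrical field (dcEF). The members are the named core components from the insulin receptor adaptors through the PI3K enzymes, the AKT kinases and the mTOR complexes to their outputs, chosen by gene symbol, and they are 37 of the 32490 gene names in the expression table and 356 of its 145326 transcripts. Aggregates of U87 mg (glioblastoma) or DAOY (labelled desmoplastic cerebellar medulloblastoma) rested for 24 h in Matrigel mixed with medium inside a channel and then received a field of 250 V/m that lasted 0 h (none), 2 h or 8 h. Each of the 6 combinations of line and time has 3 biological replicates (18 samples), numbered 0, 1 and 2, and each is a pool of 3 channels. The replicates sequenced were those with the best RNA quality of a larger set, except in DAOY at 8 h, where 3 were available. The 0 h samples had no field and were not kept in the channel for a further 2 or 8 h, so field and time in the channel cannot be told apart. Each line is a single established culture, so the replicates speak for these cultures and not for other tumours, and the p-values below measure the spread between such replicates.

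Class I PI3Ks are dimers of a catalytic and a regulatory subunit that are recruited by activated receptors and adaptors and make the membrane lipid PIP3, to which PDK1 (gene PDPK1) and AKT bind. AKT inhibits the TSC1-TSC2 complex, the brake on the small GTPase RHEB, and RHEB activates mTORC1, the kinase complex that drives protein synthesis through S6 kinases and 4E-BP1. AKT also phosphorylates GSK3 and keeps FOXO transcription factors out of the nucleus, while mTORC2 phosphorylates AKT. The pathway is commonly overactive in glioblastoma, and it is regulated largely through phosphorylation and lipid levels, which RNA does not measure. The study used inhibitors of PI3K, AKT and mTOR on these aggregates, which is why PIK3CG, PIK3CA, AKT1, AKT2 and MTOR are described here whatever their change.

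The libraries held between 8341976 and 15610886 estimated counts, of which the members took 0.233 to 0.261%. VIM and CD44, found in mesenchymal-like glioma cells, stood at 3997 to 5341 and 2565 to 3547 TPM (Kallisto's length-corrected unit) in the 9 U87 mg libraries and at 1719 to 2970 and 885 to 1533 TPM in the 9 DAOY libraries. The glial markers GFAP and S100B did not pass 3.11 TPM in any library, SOX2 was at most 0.086 TPM in U87 mg, and of the 8 medulloblastoma and granule lineage markers ATOH1 was not analysed here, BARHL1 was 0 and GLI1 at most 0.93 TPM in DAOY, where PTCH1, ZIC1 and SFRP1 were 6.07 to 28.2 TPM. The leukocyte marker PTPRC was at most 0.66 TPM in either line, while CD68, a lysosomal protein used as a macrophage marker, was 247 to 602 TPM in U87 mg and 10.8 to 43.9 TPM in DAOY. The 8 markers of other cell types summed to 286 to 647 TPM in U87 mg and 45.6 to 111 TPM in DAOY at 0 h. Bulk RNA cannot separate fewer cells of a kind from less RNA per cell.

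Replicate 0 at 0 h departed furthest from the other replicates of its group in each line, and the departure went with base composition. Genes with a GC content above 55% took 8.26% of the counts in that U87 mg library against 14.2% in each of the other two, and 6.18% in that DAOY library against 12.4 and 10.3%. Across the 37 members, the deviation of this library from its group fell with GC content (Spearman's rho of -0.81 in U87 mg and -0.84 in DAOY, a description over genes that share a library). GC-rich members such as AKT1, AKT2, TSC2, RPTOR and RPS6KB2 were low, and AT-rich members such as PIK3CA and RICTOR high, in that control library of each line. Since every field comparison uses these controls, the values without them and after removal of each library's GC trend are given where they change a call. Other libraries departed with GC content too, in either direction, with rho between -0.69 and 0.85 over the remaining 16 libraries, where the deviations within a group depend on each other. The share of counts above 55% GC spanned 9.23 to 13.5% in DAOY at 2 h, 9.94 to 13.3% in U87 mg at 8 h and 8.50 to 10.2% in U87 mg at 2 h. The 8.26% of the U87 mg control library was thus close to the lowest U87 mg library at 2 h. The 6.18% of the DAOY control library was the lowest of any library, and the next lowest in DAOY was 8.68% (8 h replicate 1). The part of library composition in a member's change was not tested.

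**Figure D1:**
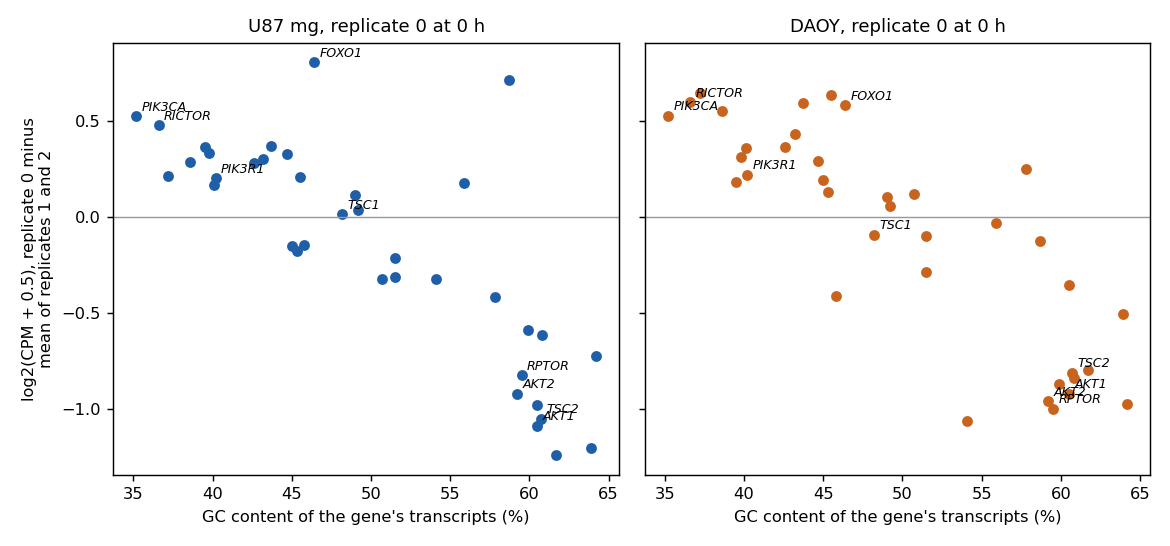
Each point is 1 of the 37 members, with its GC content in percent on the horizontal axis and, on the vertical axis, log2(CPM + 0.5) in replicate 0 at 0 h minus the mean of replicates 1 and 2, for U87 mg (left) and DAOY (right). Members above about 55% GC lie mostly below 0 and the AT-rich members above 0 in both lines, while TSC1 (48.2% GC) is near 0.

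Compared per length, RHEB and MAPKAP1 were the most abundant members in both lines, with EIF4E next in U87 mg and PIK3C3 next in DAOY. In TPM at 0 h (mean ± SD, n = 3), RHEB led with 657 ± 70 in U87 mg and 501 ± 51.3 in DAOY, followed by MAPKAP1, an mTORC2 subunit, with 246 ± 17.2 and 169.8 ± 28.98. EIF4E, the cap-binding protein held by 4E-BP1, had 211 ± 17.6 and 125 ± 18.3 TPM, and PIK3C3, the class III PI3K of autophagy and endosomes, had 95.8 ± 10.8 and 163 ± 36.9 TPM. The AKT kinases and MTOR were lower. AKT1 had 43.6 ± 19.4 and 54.7 ± 25.8 TPM, AKT2 36.8 ± 13.5 and 52.03 ± 22.5 TPM, and MTOR 18.2 ± 1.26 and 22.1 ± 5.69 TPM, with AKT1 and AKT2 within 1 SD of each other in either line. At the low end, PIK3CG, PIK3C2B and DEPTOR were at most 1.82 TPM on average in both lines. FOXO1 was at 0.69 ± 0.25 TPM in U87 mg but 14.6 ± 1.96 TPM in DAOY, ranking 35 and 26 among the 37 members.

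**Figure D2:**
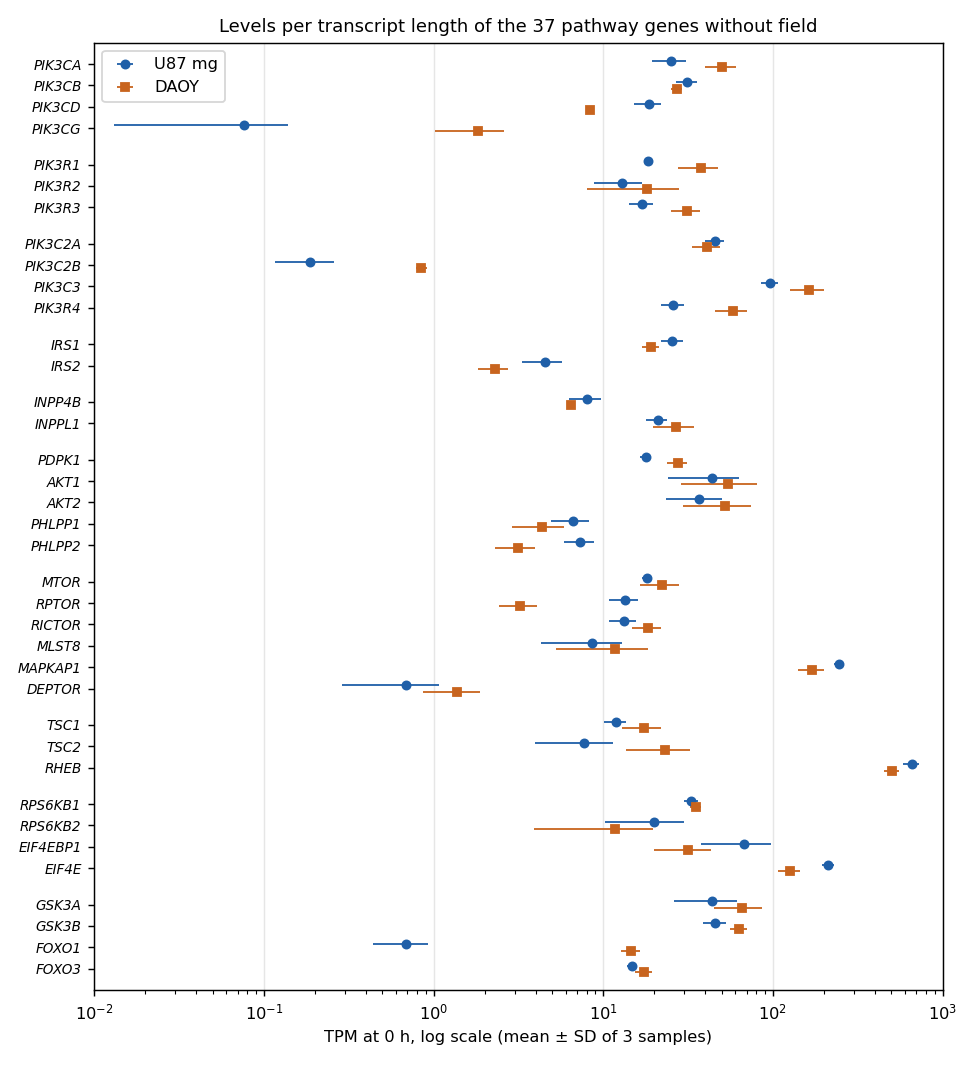
TPM at 0 h on a log axis for the 37 members, grouped by role from class I catalytic subunits (top) to GSK3 and FOXO (bottom), as the mean ± SD of 3 samples (circles U87 mg, squares DAOY). RHEB and MAPKAP1 were highest in both lines, and the widest separations between the lines were those of PIK3CG, FOXO1, PIK3C2B and RPTOR.

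The first comparison set the lines against each other without a field, using counts scaled to library size across the 18 libraries (CPM). The test was the quasi-likelihood test of edgeR, with p-values adjusted by Benjamini and Hochberg's method over every gene tested, and a BH-adjusted p below 0.05 is a call. Folds are those of the fit, which need not equal the ratio of mean CPM. Of the 37 members, 11 were higher in DAOY and 10 lower, while across all 16482 genes tested 32.8% were higher and 27.9% lower, so the members were called about as often as any gene. A difference of at least 2-fold was also required by the study's criteria, and 11 of the 37 members met it against 41.2% of all genes. The median log2 difference, DAOY over U87 mg, was +0.18 over the members and +0.05 over all genes. By role, higher and lower calls in DAOY numbered 2 and 1 of the 4 class I catalytic subunits, 2 and 0 of the 3 regulatory subunits, 2 and 0 of the 4 class II and III genes, 0 and 1 of the 2 receptor adaptors, 0 and 0 of the 2 inositol phosphatases and 1 and 2 of the 5 genes for PDK1, AKT and the PHLPP phosphatases. Downstream they numbered 0 and 2 of the 6 mTOR complex genes, 2 and 1 of the 3 TSC and RHEB genes, 0 and 3 of the 4 mTORC1 outputs and 2 and 0 of the 4 GSK3 and FOXO genes.

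**Figure D3:**
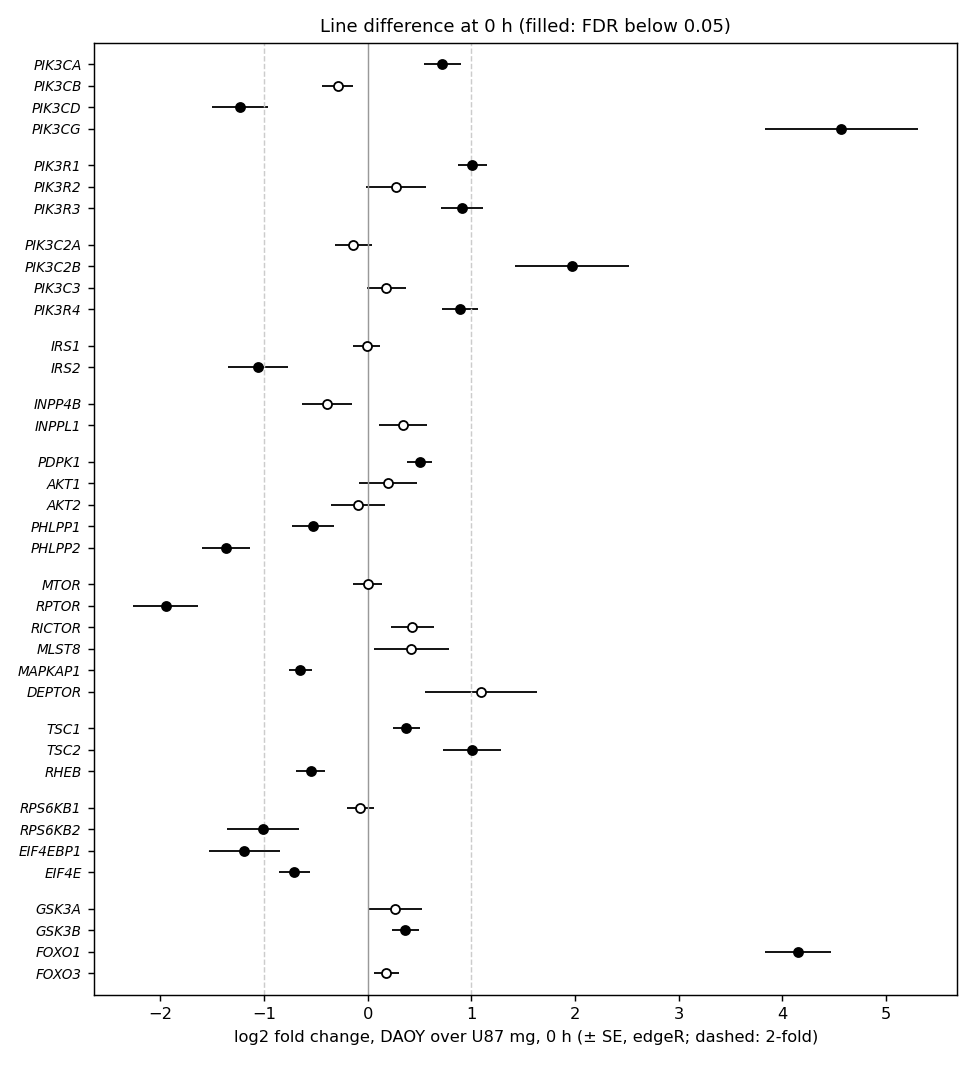
Log2 fold change of DAOY over U87 mg at 0 h with its SE for the 37 members, ordered by role. Filled points passed an adjusted p below 0.05 and dashed lines mark 2-fold. FOXO1 (+4.15) and PIK3CG (+4.57) lie far to the right, RPTOR (-1.95) is the leftmost, and MTOR, IRS1 and AKT2 lie near 0.

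The class I catalytic subunits differed between the lines in opposite directions. PIK3CG encodes p110 gamma, the isoform driven by G protein-coupled receptors and best known from leukocytes. Its estimated counts in U87 mg were 2, 1 and 2 at 0 h, 2, 0 and 0 at 2 h and 0, 1 and 3 at 8 h. In DAOY they were 39, 57 and 15 at 0 h, 35, 14 and 36 at 2 h and 33, 30 and 18 at 8 h, and every DAOY library exceeded every U87 mg library. From the summed counts at 0 h (111 against 5) the ratio was 26.3, with an exact 95% interval of 10.9 to 82.5 that covers counting error only, and at 8 h (81 against 4) it was 23.5 (8.85 to 88.5). At 0 to 3 counts per library a change of PIK3CG with the field was not detectable in U87 mg, and the gene did not pass the count filter there.

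PIK3CD, p110 delta, another isoform typical of leukocytes, was instead higher in U87 mg at 0 h. U87 mg was the line with more CD68, while the leukocyte marker PTPRC was at most 0.641 TPM in U87 mg and 0.663 TPM in DAOY. The part of leukocyte RNA in the PIK3CG or PIK3CD difference was not tested. PIK3CD had 44.9, 54.5 and 66.4 CPM at 0 h, 53.7, 38.2 and 42.3 CPM at 2 h and 67.97, 42.8 and 47.5 CPM at 8 h in U87 mg. In DAOY it had 26.4, 24.6 and 19.9 CPM at 0 h, 42.95, 19.2 and 24.7 CPM at 2 h and 67.6, 43.1 and 44.98 CPM at 8 h, and the lines did not overlap at 0 h (log2 fold change -1.23 ± 0.27 (SE), edgeR BH-adjusted p = 0.000823). By 8 h they overlapped, with a difference of -0.02 ± 0.27 (SE) on the log2 scale. PIK3CA, the widely expressed p110 alpha that is often mutated in tumours, was 87.7, 62.6 and 58.8 CPM at 0 h, 78.5, 89.95 and 85.7 CPM at 2 h and 60.8, 71.2 and 72.7 CPM at 8 h in U87 mg. The DAOY libraries had 144, 89.2 and 111 CPM at 0 h, 85.3, 102 and 111 CPM at 2 h and 99.1, 117 and 125 CPM at 8 h, which was higher at 0 h with no overlap (log2 fold change +0.72 ± 0.18 (SE), edgeR BH-adjusted p = 0.00223). The ubiquitous p110 beta, PIK3CB, was 75.3 ± 10.5 CPM in U87 mg and 61.6 ± 11.02 CPM in DAOY at 0 h and was not called (edgeR BH-adjusted p = 0.105). It was called lower in DAOY without DAOY 0 h replicate 0 (log2 fold change -0.40, edgeR BH-adjusted p = 0.044) and with the GC trend removed (log2 fold change -0.44, edgeR BH-adjusted p = 0.00138).

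Of the regulatory subunits, PIK3R1 (p85 alpha, chromosome 5, 68215720 to 68301821, plus strand) stabilises and restrains the catalytic subunits. It had 54.7, 48.99 and 46.1 CPM at 0 h, 56.6, 50.01 and 58.6 CPM at 2 h and 34.7, 38.97 and 34.7 CPM at 8 h in U87 mg. DAOY had 111, 105 and 85.95 CPM at 0 h, 78.4, 70.5 and 83.8 CPM at 2 h and 60.7, 72.1 and 56.5 CPM at 8 h, about 2.01 times as much at 0 h (log2 fold change +1.01 ± 0.14 (SE), edgeR BH-adjusted p = 5.15e-06). The 2 lines were separate at each time. PIK3R3 (p55 gamma) was also higher in DAOY (log2 fold change +0.91 ± 0.20 (SE), edgeR BH-adjusted p = 0.000845), and PIK3R2 (p85 beta) was 32.8 ± 8.95 and 39.4 ± 17.9 CPM, with overlap, and was called only with the GC trend removed (log2 fold change +0.43, edgeR BH-adjusted p = 0.0123). Of the class II and class III genes, PIK3R4, the VPS15 partner of PIK3C3, was higher in DAOY (log2 fold change +0.89 ± 0.17 (SE), edgeR BH-adjusted p = 0.000203). PIK3C2B, a class II enzyme, was low in both lines. It had 0.6, 0.84 and 0.91 CPM at 0 h, 0.2, 0.62 and 0.25 CPM at 2 h and 0.43, 0.26 and 0 CPM at 8 h in U87 mg. In DAOY it had 1.58, 3.96 and 3.75 CPM at 0 h, 1.3, 3.82 and 3.48 CPM at 2 h and 2.56, 1.21 and 2.42 CPM at 8 h, higher without overlap at 0 h (log2 fold change +1.97 ± 0.55 (SE), edgeR BH-adjusted p = 0.00519). PIK3C2A and PIK3C3 had log2 differences of -0.14 and +0.18 and were not called. PIK3C2A was called without DAOY 0 h replicate 0 (log2 fold change -0.39, edgeR BH-adjusted p = 0.0458) and with the GC trend removed (log2 fold change -0.28, edgeR BH-adjusted p = 0.014). PIK3C3 turned to -0.02 without that library and was called with limma at either pseudocount.

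Upstream, the insulin receptor substrates split. IRS1 was 94.4 ± 13.5 CPM in U87 mg and 93.5 ± 5.34 CPM in DAOY, while IRS2, itself a known FOXO target, was lower in DAOY. IRS2 had 32.8, 21.3 and 18.3 CPM at 0 h, 29.5, 28.4 and 23.98 CPM at 2 h and 24.6, 19.1 and 36.7 CPM at 8 h in U87 mg. It had 10.8, 10.9 and 12.99 CPM at 0 h, 14.6, 14.3 and 25.2 CPM at 2 h and 10.4, 15.3 and 18.8 CPM at 8 h in DAOY (log2 fold change -1.06 ± 0.29 (SE), edgeR BH-adjusted p = 0.00441 at 0 h), and without replicate 0 at 0 h of both lines the edgeR BH-adjusted p was 0.0655, and with the GC trend removed 0.0553. The inositol phosphatases INPP4B and INPPL1 (SHIP2), which take phosphates off PI3K products, were not called, with log2 differences of -0.39 and +0.34. Both were called with the GC trend removed (-0.53 and +0.51, edgeR BH-adjusted p = 0.0291 and 0.000452), and INPPL1 also without DAOY 0 h replicate 0 (+0.58, edgeR BH-adjusted p = 0.025).

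AKT1 and AKT2, the kinases at the centre of the pathway, gave no call between the lines, and both were at their lowest of the line in replicate 0 at 0 h. For AKT1 the U87 mg libraries had 35.95, 75.8 and 78.3 CPM at 0 h, 56.04, 53.6 and 44.4 CPM at 2 h and 74.5, 55.01 and 64.8 CPM at 8 h. Those of DAOY had 45.1, 99.3 and 74.1 CPM at 0 h, 104, 78.7 and 64.03 CPM at 2 h and 89.7, 67.9 and 62.6 CPM at 8 h (log2 fold change +0.20 ± 0.28 (SE), edgeR BH-adjusted p = 0.56 at 0 h). With each library's GC trend removed AKT1 was called higher in DAOY (log2 fold change +0.42 ± 0.12 (SE), edgeR BH-adjusted p = 0.00494), and without 1 library (U87 mg 0 h replicate 0 or DAOY 0 h replicate 1) its direction turned. AKT2 had 34.8, 67.4 and 65.1 CPM at 0 h, 45.97, 44.6 and 38.1 CPM at 2 h and 65.7, 56.7 and 55.9 CPM at 8 h in U87 mg. In DAOY it had 31.6, 73.7 and 52.2 CPM at 0 h, 70.2, 59.3 and 45.8 CPM at 2 h and 59.4, 59.03 and 51.5 CPM at 8 h (log2 fold change -0.09 ± 0.26 (SE), edgeR BH-adjusted p = 0.792). Transcripts annotated as protein coding held only 29.03 ± 2.65% (SD, n = 3) of the AKT2 counts in DAOY at 0 h and a retained-intron transcript, ENST00000476266, held 47.8%, against 24.6% for that transcript in U87 mg. On protein-coding transcripts alone AKT2 was lower in DAOY (log2 fold change -0.89, edgeR BH-adjusted p = 0.0153), whereas removing the GC trend gave +0.10, so its direction depends on these choices.

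PDPK1, which activates AKT, was higher in DAOY (log2 fold change +0.50 ± 0.12 (SE), edgeR BH-adjusted p = 0.00176), and both PHLPP genes, phosphatases that act on AKT, were lower. PHLPP2 had 30.4, 32.4 and 35.2 CPM at 0 h, 32.96, 32.1 and 43.9 CPM at 2 h and 32.9, 50.9 and 48.7 CPM at 8 h in U87 mg. The DAOY values were 13.8, 10.3 and 14 CPM at 0 h, 11.5, 13.2 and 13.8 CPM at 2 h and 18.5, 26.2 and 13.6 CPM at 8 h, all below the U87 mg values (log2 fold change -1.37 ± 0.23 (SE), edgeR BH-adjusted p = 5.63e-05 at 0 h). PHLPP1 was 14.3 ± 1.16 CPM in U87 mg and 9.87 ± 1.9 CPM in DAOY (edgeR BH-adjusted p = 0.0278). It was lost with the GC trend removed (edgeR BH-adjusted p = 0.0955), without replicate 0 at 0 h of U87 mg (0.0746), of DAOY (0.0597) or of both, and with limma, no count filter or the replicate block.

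MTOR itself did not differ at 0 h beyond the spread between replicates, whereas RPTOR, the scaffold that defines mTORC1, stood at 0.26 of its U87 mg level in DAOY. MTOR had 62.6, 80.2 and 75.8 CPM at 0 h, 69.6, 63.05 and 57.4 CPM at 2 h and 69.6, 75.2 and 70.6 CPM at 8 h in U87 mg. It had 63.2, 83.5 and 71.4 CPM at 0 h, 81.1, 73.6 and 75.9 CPM at 2 h and 65.4, 52.7 and 53.2 CPM at 8 h in DAOY (log2 fold change +0.00 ± 0.14 (SE), edgeR BH-adjusted p = 0.991 at 0 h). At 8 h, a comparison added after the data were seen, MTOR was called lower in DAOY, but in only 2 of the 15 alternatives. RPTOR had 25.3, 49.2 and 41.4 CPM at 0 h, 32.4, 30.5 and 24.2 CPM at 2 h and 27.8, 29.1 and 21.6 CPM at 8 h in U87 mg. In DAOY it had 5.76, 11.5 and 12.6 CPM at 0 h, 11.4, 10.02 and 8.2 CPM at 2 h and 7.14, 3.63 and 8.67 CPM at 8 h, with no DAOY library reaching the lowest of U87 mg (log2 fold change -1.95 ± 0.31 (SE), edgeR BH-adjusted p = 3.73e-05). The processed transcript ENST00000575542 of RPTOR, which has no reading frame, held 13.3% of the RPTOR counts in DAOY at 0 h (0 to 55.9% by library) and 44.7% at 8 h (31.8 to 68.6%), by Kallisto's division of the reads. Of the mTORC2 subunits, MAPKAP1 (SIN1) was lower in DAOY (log2 fold change -0.65 ± 0.11 (SE), edgeR BH-adjusted p = 4.55e-05) and RICTOR was not called (log2 fold change +0.43 ± 0.21 (SE), edgeR BH-adjusted p = 0.0913). MLST8, shared by both complexes, and DEPTOR, an inhibitor of both, were +0.42 and +1.09 and were not called. MLST8 was called with the GC trend removed (log2 fold change +0.69, edgeR BH-adjusted p = 0.00651), RICTOR without U87 mg 0 h replicate 0 (log2 fold change +0.61, edgeR BH-adjusted p = 0.0317) or DAOY 0 h replicate 1. DEPTOR was called without U87 mg 0 h replicate 1 and with the replicate block.

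In the TSC and RHEB group both subunits of the brake were higher in DAOY and RHEB was lower. TSC2, the GTPase-activating subunit, had 9.19, 21.2 and 18.1 CPM at 0 h, 14.7, 14.1 and 9.77 CPM at 2 h and 15.7, 15.1 and 12 CPM at 8 h in U87 mg. DAOY had 21.4, 44.9 and 31.96 CPM at 0 h, 46.9, 37.8 and 33.9 CPM at 2 h and 43.7, 37.7 and 40.04 CPM at 8 h, about 2.02 times as much at 0 h with no overlap (log2 fold change +1.01 ± 0.28 (SE), edgeR BH-adjusted p = 0.00435). The log2 difference was +0.37 ± 0.13 (SE) for TSC1 (edgeR BH-adjusted p = 0.0211) and -0.55 ± 0.14 (SE) for RHEB (edgeR BH-adjusted p = 0.00215). The TSC1 call at 0 h was lost with no count filter, on protein-coding transcripts alone, from the samples compared alone, and without U87 mg 0 h replicate 2 or DAOY 0 h replicate 1.

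Of the 4 mTORC1 outputs, 3 were lower in DAOY. EIF4E differed by -0.71 ± 0.15 (SE) on the log2 scale (edgeR BH-adjusted p = 0.000678). EIF4EBP1, the 4E-BP1 repressor that mTORC1 switches off, had 16.3, 28.7 and 37.01 CPM at 0 h, 22.6, 21.9 and 20.6 CPM at 2 h and 34.2, 16.3 and 16.5 CPM at 8 h in U87 mg. It had 9.94, 15.1 and 10.96 CPM at 0 h, 19.4, 10.5 and 10.6 CPM at 2 h and 11.9, 6.49 and 8.47 CPM at 8 h in DAOY (log2 fold change -1.19 ± 0.34 (SE), edgeR BH-adjusted p = 0.00613 at 0 h). However, a transcript without a reading frame, ENST00000520657, held 65.4% of its counts in DAOY and 74.4% in U87 mg at 0 h, and on protein-coding transcripts alone it was not called (edgeR BH-adjusted p = 0.247). RPS6KB2 encodes an S6 kinase. It had 9.49, 22.4 and 23.9 CPM at 0 h, 15.9, 12.5 and 11.2 CPM at 2 h and 23.2, 17.6 and 15.2 CPM at 8 h in U87 mg. In DAOY it had 5.76, 14.2 and 7.61 CPM at 0 h, 14.1, 8.78 and 7.3 CPM at 2 h and 8.9, 6.6 and 7.56 CPM at 8 h, and the lines overlapped at 0 h (log2 fold change -1.01 ± 0.35 (SE), edgeR BH-adjusted p = 0.0198). This call was lost without U87 mg 0 h replicate 1 or 2 or DAOY 0 h replicate 0 or 2 (edgeR BH-adjusted p = 0.0715 to 0.0899). RPS6KB1, the main S6 kinase gene, was at 64.95 ± 4.95 and 61.7 ± 9.41 CPM and was called only with the GC trend removed (log2 fold change -0.24, edgeR BH-adjusted p = 0.016).

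Among the targets of AKT, FOXO1 (chromosome 13, 40469953 to 40666597, minus strand), a transcription factor that activates growth-arrest and metabolic genes, had the smallest adjusted p of the members. U87 mg had 3.79, 2.1 and 1.81 CPM at 0 h, 2.84, 2.16 and 2.66 CPM at 2 h and 2.01, 0.87 and 1.11 CPM at 8 h. DAOY had 57.9, 33.8 and 43.6 CPM at 0 h, 24.2, 37.99 and 35.4 CPM at 2 h and 16.7, 19.6 and 23.2 CPM at 8 h, more than in any U87 mg library, and at 0 h 17.8 times as much (log2 fold change +4.15 ± 0.32 (SE), edgeR BH-adjusted p = 6.96e-09). Its paralog FOXO3 was 69.99 ± 5.97 and 79.4 ± 5.64 CPM and was not called. GSK3B was slightly higher in DAOY (log2 fold change +0.36 ± 0.13 (SE), edgeR BH-adjusted p = 0.0225), while GSK3A was +0.26 and was not called. The GSK3B call was lost without DAOY 0 h replicate 0 (+0.23, edgeR BH-adjusted p = 0.122), without U87 mg 0 h replicate 1 or 2, with no count filter and from the samples compared alone. GSK3A was called with the GC trend removed (+0.44, edgeR BH-adjusted p = 0.00488). FOXO3, RHEB, EIF4E and PDPK1 have close copies in the table (FOXO3B, RHEB and EIF4E pseudogenes, PDPK2P), so their levels are uncertain to the extent that reads were shared.

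Of the 21 calls at 0 h, 15 were made in each of the 16 alternatives run for this comparison, namely EIF4E, FOXO1, MAPKAP1, PDPK1, PHLPP2, PIK3C2B, PIK3CA, PIK3CD, PIK3CG, PIK3R1, PIK3R3, PIK3R4, RHEB, RPTOR and TSC2. The other 6 were made in 15 (EIF4EBP1), 14 (IRS2), 11 (GSK3B), 11 (TSC1), 9 (RPS6KB2) and 6 (PHLPP1) of them.

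The line differences were tested again under the field, in comparisons added after the data were seen. All 21 members called at 0 h kept their sign at 2 h and at 8 h, and 13 were called at each of the 3 times, 8 of them higher in DAOY (FOXO1, PDPK1, PIK3C2B, PIK3CG, PIK3R1, PIK3R3, PIK3R4 and TSC2) and 5 lower (EIF4E, MAPKAP1, PHLPP2, RHEB and RPTOR). The others, EIF4EBP1, GSK3B, IRS2, PHLPP1, PIK3CA, PIK3CD, RPS6KB2 and TSC1, were not called at every time. PIK3CD kept its sign in name only, with a mean of 51.9 CPM in DAOY and 52.8 CPM in U87 mg at 8 h. At 2 h 21 members were called against 60.6% of all genes, and at 8 h 20 members against 61.1%. Of the 37 members, 9 were called at none of the 3 times: AKT1, AKT2, DEPTOR, FOXO3, INPP4B, IRS1, PIK3C3, PIK3R2 and RICTOR. The shares of all genes called at each of the 3 times, at none or with a constant sign were not computed. These counts are therefore not read as traits of the members.

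The second comparison asked which members changed with 2 h of field. In neither line was a member called by edgeR, nor was any of the 14106 genes tested in U87 mg (0%) or the 15396 tested in DAOY (0%), and DESeq2 and limma also called 0 members. Unadjusted, 1239 genes in U87 mg and 424 in DAOY had p below 0.05, and DESeq2 called 4 genes in U87 mg and 1 in DAOY. limma on log2(TPM + 1) called 1 gene in U87 mg and 0 in DAOY. At an unadjusted p below 0.05 there were 3 of 35 members in U87 mg (PIK3C2A, RICTOR and GSK3B, with log2 changes of +0.35, +0.38 and +0.26) and 2 of 37 in DAOY (IRS2, +0.66, and PIK3R1, -0.34). PIK3CG and PIK3C2B were too low to be tested in U87 mg. The count in U87 mg rested on a single control library. Without its replicate 0 at 0 h, 6 members were called, AKT1 (-0.59), AKT2 (-0.63), RPS6KB2 (-0.81) and RPTOR (-0.64) lower and PIK3CA (+0.47) and RICTOR (+0.54) higher, beside 8.38% of all genes. The first 4 are GC-rich and the last 2 AT-rich. With that library kept, 0 members and 0 genes were called whether or not each library's GC trend was removed. That result therefore does not bear on the 6 calls. No fit both left that library out and removed the trend, and the part of GC content in these calls was not tested. With the library kept and the trend removed, an unadjusted p below 0.05 was found for 1 member and for 571 of the 14106 genes.

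After 8 h, TSC1 was the member that was called in both lines, and it was higher. TSC1 (hamartin, chromosome 9, 132891348 to 132946874, minus strand) stabilises TSC2 in the complex that holds RHEB inactive. U87 mg had 48.9, 50.8 and 46.1 CPM at 0 h, 54.8, 52.99 and 46.7 CPM at 2 h and 80.1, 85.3 and 98.7 CPM at 8 h. The 3 libraries at 8 h were all above every library at 0 and 2 h, with a fitted 1.85 times the 0 h level (log2 fold change +0.89 ± 0.13 (SE), edgeR BH-adjusted p = 0.0158). DAOY had 60.2, 68.3 and 60.4 CPM at 0 h, 67.8, 64.4 and 85.2 CPM at 2 h and 96.6, 115 and 101 CPM at 8 h, with the 8 h libraries again above the rest and a fitted 1.67 times the 0 h level (log2 fold change +0.74 ± 0.15 (SE), edgeR BH-adjusted p = 0.0231). The lines were not called as differing in this change (log2 difference of the changes -0.13 ± 0.19 (SE), edgeR BH-adjusted p = 0.924), and at 48.2% GC the gene was near 0 in the deviation of the control library. The call was lost without U87 mg 0 h replicate 2 or 8 h replicate 2 in U87 mg (edgeR BH-adjusted p = 0.0764 and 0.101) and without DAOY 0 h replicate 2, 8 h replicate 1 or 8 h replicate 2 in DAOY (edgeR BH-adjusted p = 0.0707 to 0.0973), with log2 changes of +0.68 to +0.81 in these fits. With limma on log2(TPM + 1) the changes were +0.63 and +0.41 and no member was called in either line (limma BH-adjusted p = 0.162 and 0.284 for TSC1). From the samples compared alone PIK3CD in DAOY was the single call. Kallisto moved TSC1 counts among 3 coding transcripts from sample to sample, such as ENST00000545250, which held 0.02 to 60.9% in U87 mg at 0 h, so only the sum is used.

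In U87 mg TSC1 was the single member called at 8 h, where 0.95% of all genes were higher and 0.773% lower, and it did not reach 2-fold. DAOY had 3 calls, TSC1 higher and FOXO1 and PIK3R1 lower, against 2.34% of genes higher and 3.5% lower, and FOXO1 alone was past 2-fold as were 3.13% of genes. The median log2 change over the tested members was +0.11 in U87 mg and +0.03 in DAOY, with 0.00 and -0.01 over all genes.

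FOXO1 fell in DAOY from the CPM values above to 16.7, 19.6 and 23.2 at 8 h, below each of the 3 libraries at 0 h and each at 2 h, or to 0.45 of its level (log2 fold change -1.16 ± 0.23 (SE), edgeR BH-adjusted p = 0.0233). In U87 mg FOXO1 was at 10 to 38 counts per library, and its log2 change of -0.87 ± 0.39 (SE) did not pass (edgeR BH-adjusted p = 0.31). PIK3R1 fell in DAOY to 0.64 of its 0 h level without overlap (log2 fold change -0.65 ± 0.15 (SE), edgeR BH-adjusted p = 0.0389). In U87 mg its 8 h libraries (34.7 to 39.0 CPM) also lay below its 0 h libraries (46.1 to 54.7 CPM), but the change did not pass (log2 fold change -0.43 ± 0.12 (SE), edgeR BH-adjusted p = 0.104). Neither difference between the lines was called (edgeR BH-adjusted p = 0.936 for FOXO1 and 0.845 for PIK3R1). The PIK3R1 call in DAOY was lost when any 1 DAOY library of the 0 or 8 h groups was left out (edgeR BH-adjusted p = 0.0531 to 0.15), and that of FOXO1 without 0 h replicate 2 or any 8 h library (0.0586 to 0.0971 in the same edgeR test).

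**Figure D4:**
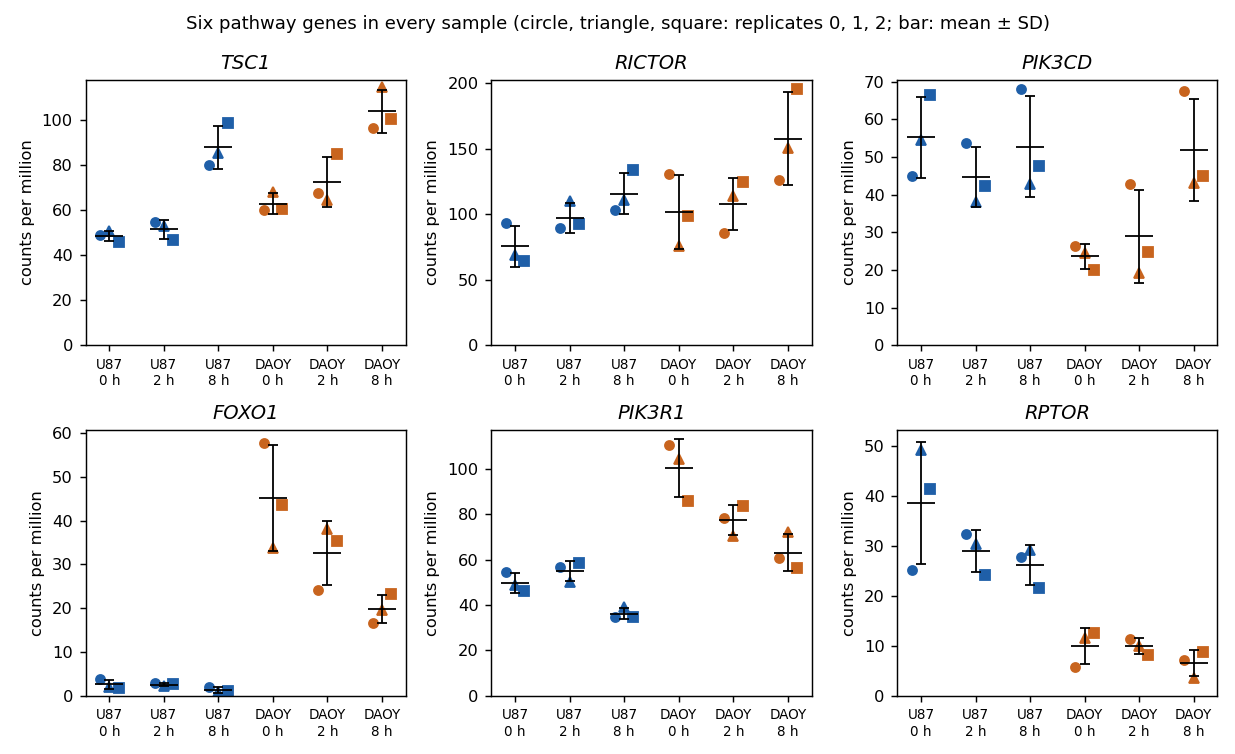
CPM of 6 members in every sample, with 3 replicates per group (circle, triangle and square for replicates 0, 1 and 2) and the mean ± SD as bars, U87 mg on the left of each panel and DAOY on the right. TSC1 at 8 h lies above 0 h in both lines, PIK3R1 at 8 h lies below 0 h in both, and FOXO1 at 8 h lies below 0 h in DAOY, where every library is above those of U87 mg.

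RICTOR and PIK3CD did not pass the threshold and are described because of their values. RICTOR, the scaffold of mTORC2, had 93.4, 69.2 and 64.4 CPM at 0 h, 89.3, 110.5 and 92.8 CPM at 2 h and 103, 111 and 134 CPM at 8 h in U87 mg. DAOY had 131, 75.5 and 98.6 CPM at 0 h, 85.7, 114 and 125 CPM at 2 h and 126, 151 and 196 CPM at 8 h. Its 8 h libraries lay above the 0 h libraries in U87 mg (log2 fold change +0.65 ± 0.16 (SE), edgeR BH-adjusted p = 0.0642) and overlapped them by 1 library in DAOY (log2 fold change +0.66 ± 0.22 (SE), edgeR BH-adjusted p = 0.11), and at 36.6% GC it was high in replicate 0 of both control groups. Without U87 mg 0 h replicate 0, when 3 members (TSC1, RICTOR and, with -0.77, RPTOR) and 5.2% of all genes were called, it was called in U87 mg (log2 fold change +0.81, edgeR BH-adjusted p = 0.0172). With the GC trend removed it was called in both lines (log2 fold change +0.59 ± 0.11 (SE), edgeR BH-adjusted p = 0.00977 in U87 mg; log2 fold change +0.76 ± 0.16 (SE), edgeR BH-adjusted p = 0.013 in DAOY). PIK3CD was between 19.9 and 26.4 CPM at 0 h and between 43.1 and 67.6 CPM at 8 h in DAOY with no overlap, but missed the threshold (log2 fold change +1.16 ± 0.30 (SE), edgeR BH-adjusted p = 0.0505) that it passed with DESeq2 (adjusted p = 0.0039). In U87 mg it was -0.04 ± 0.20 (SE), and the difference between the lines was not called (log2 fold change +1.20 ± 0.38 (SE), edgeR BH-adjusted p = 0.301).

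The 250 bases before the RefSeq start site of TSC1, RICTOR, PIK3R1 and FOXO1 are shown because TSC1, PIK3R1 and FOXO1 were the members called at 8 h and RICTOR was called in both lines once the GC trend was removed (GRCh38.p14, sense strand of each gene, 5′ to 3′, from RefSeq). Capitals mark GC boxes (GGGCGG on either strand, which can overlap each other) and CCAAT boxes (CCAAT on either strand), which are general promoter elements. The windows are chr9:132944617-132944866 (minus strand), chr5:39074400-39074649 (minus), chr5:68215506-68215755 (plus) and chr13:40666642-40666891 (minus), and each ends within 44 bases of the start of a transcript that held at least 10% of the gene's counts in a condition. For TSC1 that transcript, ENST00000298552, held 9.83 to 14.3% of the counts in DAOY at 0 and 8 h, less than ENST00000440111 with 56.4 to 69.7%.
TSC1: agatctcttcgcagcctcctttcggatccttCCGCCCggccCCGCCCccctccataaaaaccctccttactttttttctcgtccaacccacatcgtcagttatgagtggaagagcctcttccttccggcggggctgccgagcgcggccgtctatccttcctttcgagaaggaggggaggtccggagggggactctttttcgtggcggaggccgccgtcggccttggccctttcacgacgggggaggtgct
RICTOR: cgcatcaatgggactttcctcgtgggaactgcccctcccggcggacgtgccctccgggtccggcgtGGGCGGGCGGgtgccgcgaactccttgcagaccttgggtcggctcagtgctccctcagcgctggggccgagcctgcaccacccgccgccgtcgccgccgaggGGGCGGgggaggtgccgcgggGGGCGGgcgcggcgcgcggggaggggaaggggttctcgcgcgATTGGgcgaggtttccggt
PIK3R1: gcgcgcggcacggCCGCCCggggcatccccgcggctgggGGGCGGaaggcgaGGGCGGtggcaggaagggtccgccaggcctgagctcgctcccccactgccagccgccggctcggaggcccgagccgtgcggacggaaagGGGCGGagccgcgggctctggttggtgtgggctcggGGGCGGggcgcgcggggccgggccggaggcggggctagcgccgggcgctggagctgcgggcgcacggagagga
FOXO1: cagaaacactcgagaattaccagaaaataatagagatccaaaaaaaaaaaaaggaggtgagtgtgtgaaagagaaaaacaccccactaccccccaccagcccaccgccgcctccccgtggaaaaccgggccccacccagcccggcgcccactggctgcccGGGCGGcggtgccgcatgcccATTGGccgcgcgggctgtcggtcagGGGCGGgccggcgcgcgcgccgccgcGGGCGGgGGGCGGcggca
TSC1 holds 2 GC boxes and 0 CCAAT boxes, RICTOR 4 and 1, PIK3R1 5 and 0, and FOXO1 4 and 1. Among the 34 members with an entry, 26 hold a GC box (76.5%) and 18 a CCAAT box (52.9%), in at least 1 of its windows, against 46.2% and 37.0% of the 27305 genes in the promoter table. Those genes were not limited to expressed or protein-coding ones, and a gene can have several windows, such as 4 for PIK3R1. The 2 sets are therefore unlike, and no enrichment was tested. A FOXO motif (GTAAACA, either strand) is in 1 member, PIK3CA, against 3.7% of all genes, and an E-box (CACGTG, a palindrome) in 3, EIF4E, INPP4B and TSC2, against 7.7%. These matches are a description of the letters and say nothing of binding.

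The remaining members gave no call at 8 h. In the 8 h comparison 11 members in each line had an unadjusted p below 0.05, of 35 tested in U87 mg and 37 in DAOY. Across all genes this held for 2241 of 14106 in U87 mg and 3502 of 15396 in DAOY. Of the 35 members tested in both lines, 18 had a positive change in both and 8 a negative change in both. The shares of all genes with such a shared direction were not computed. PIK3CA, AKT1 and AKT2 were within +0.01 to +0.12 on the log2 scale in both lines, with SEs of 0.15 to 0.29, and MTOR was +0.01 ± 0.13 (SE) in U87 mg and -0.33 ± 0.16 (SE) in DAOY. Without replicate 0 at 0 h of the line, AKT1 turned to -0.23 in both, AKT2 to -0.14 in U87 mg and -0.15 in DAOY and MTOR to -0.10 in U87 mg. PIK3CA was then +0.19 and +0.20, and none of these was called. PHLPP2 was +0.46 ± 0.19 (SE) and +0.64 ± 0.25 (SE), RPTOR -0.54 ± 0.23 (SE) and -0.60 ± 0.37 (SE), and MLST8 -0.54 ± 0.34 (SE) and -0.55 ± 0.38 (SE) in U87 mg and DAOY, and none passed. DEPTOR, at 3 to 29 counts per library, was +0.66 ± 0.55 (SE) in U87 mg and -1.49 ± 0.49 (SE) in DAOY, and the difference of -2.14 ± 0.78 (SE) was not called (edgeR BH-adjusted p = 0.386). No member was called for a difference in its change between the lines, at 2 or at 8 h, and of all genes 0% and 0.0121% were by edgeR. At an unadjusted p below 0.05 there were 1 member at 2 h and 3 at 8 h (PIK3CD, DEPTOR and FOXO3), against 1055 and 1463 of all 16482 genes. DESeq2 and limma also called 0 members.

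**Figure D5:**
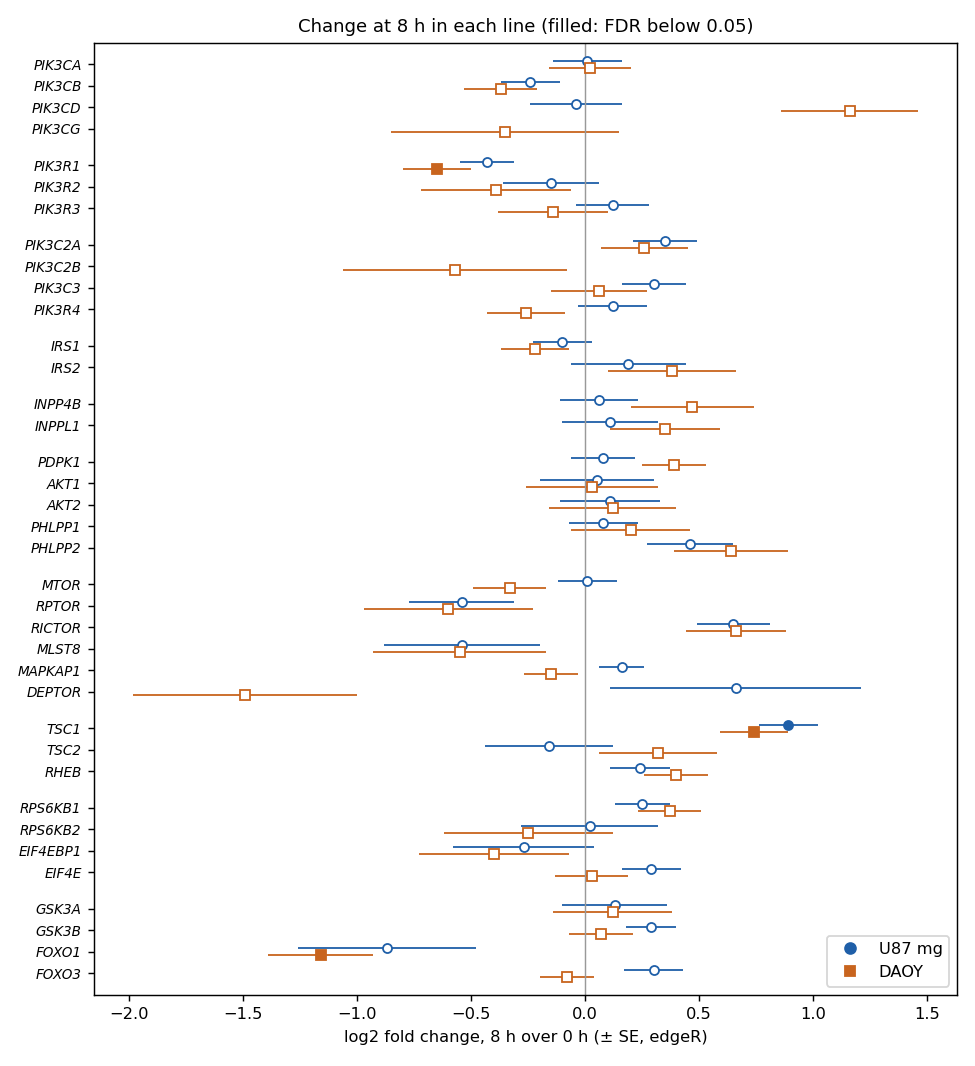
Log2 fold change of 8 h over 0 h with its SE for the members tested, ordered by role (circles U87 mg, squares DAOY, filled where the adjusted p was below 0.05). TSC1 is filled on the right in both lines, and FOXO1 and PIK3R1 are filled on the left in DAOY, with the U87 mg points on the same side.

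Removing each library's trend of expression on GC content, a choice made after the data were seen, widened these lists. In U87 mg 4 members were then called at 8 h beside 7.17% of all genes, TSC1 and RICTOR higher and PIK3R1 (log2 fold change -0.50 ± 0.10 (SE), edgeR BH-adjusted p = 0.012) and RPTOR (log2 fold change -0.45 ± 0.12 (SE), edgeR BH-adjusted p = 0.0437) lower. In DAOY 11 were called beside 16% of all genes. The 7 higher ones were TSC1, RICTOR, PIK3CD, RHEB, RPS6KB1, PDPK1 and PIK3C2A, with log2 changes of +0.36 to +1.03, and the 4 lower ones FOXO1, PIK3R1, PIK3R2 and MTOR, with -1.11 to -0.35. TSC1, RICTOR and PIK3R1 were called with the same sign in both lines, TSC1 with log2 fold change +0.89 ± 0.10 (SE), edgeR BH-adjusted p = 0.00213 in U87 mg and log2 fold change +0.77 ± 0.13 (SE), edgeR BH-adjusted p = 0.00605 in DAOY. Between the lines at 0 h the same step called 28 members against 67.4% of all genes, among them 19 of the 21 called before (without IRS2 and PHLPP1). The 9 added were higher in DAOY for AKT1, GSK3A, INPPL1, MLST8 and PIK3R2 and lower for INPP4B, PIK3C2A, PIK3CB and RPS6KB1.

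Further genes of the pathway were taken in 6 lists chosen by function, and each had 0 to 3 calls at 8 h. Of all genes, 0.95% were higher and 0.773% lower in U87 mg and 2.34% and 3.5% in DAOY. Of the 40 genes that feed nutrient and energy state into mTORC1, the 8 h field gave 1 call among 39 tested in the U87 mg aggregates and 3 among 39 in those of DAOY. C12orf66 (KICS2), a subunit of the KICSTOR complex that holds the GATOR1 inhibitor of mTORC1 at the lysosome, fell in both. In U87 mg it had 14.5, 9.66 and 11.9 CPM at 0 h, 13.5, 10.99 and 14.3 CPM at 2 h and 4.67, 5.93 and 5.14 CPM at 8 h (log2 fold change -1.16 ± 0.21 (SE), edgeR BH-adjusted p = 0.0242). In DAOY it had 11.3, 8.86 and 11.7 CPM at 0 h, 6.77, 9.64 and 8.09 CPM at 2 h and 3, 2.2 and 3.53 CPM at 8 h (log2 fold change -1.84 ± 0.26 (SE), edgeR BH-adjusted p = 0.00884), so the 8 h libraries were lowest in both lines. Also in DAOY, PRKAG1, a regulatory subunit of the energy sensor AMPK, fell from 102, 81.8 and 113 to 60.2, 57.6 and 59.3 CPM (log2 fold change -0.72 ± 0.15 (SE), edgeR BH-adjusted p = 0.0233). RRAGC, a Rag GTPase that brings mTORC1 to the lysosome, rose from 87.1, 76.01 and 75.4 to 105, 127 and 131 CPM (log2 fold change +0.63 ± 0.14 (SE), edgeR BH-adjusted p = 0.0309).

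Of the 22 AKT substrates and interactors, 8 h of field gave 0 calls among 20 tested in the U87 mg line and 2 among 21 in DAOY. TRIB2, a pseudokinase of the Tribbles family reported to bind AKT, rose in DAOY from 206, 222 and 209 to 388, 475 and 352 CPM (log2 fold change +0.96 ± 0.15 (SE), edgeR BH-adjusted p = 0.0106). THEM4, a thioesterase also described as an AKT-binding protein, fell from 26.1, 23.2 and 27.6 to 14.4, 17.6 and 13.01 CPM (log2 fold change -0.75 ± 0.18 (SE), edgeR BH-adjusted p = 0.039). The lists of further PI3K subunits and regulators (28 genes), mTOR complex assembly (10), mTORC1 and mTORC2 substrates with translation initiation (27) and FOXO target genes (20) had 0 calls at 8 h in either line by edgeR, with 4, 0, 4 and 5 genes in U87 mg and 4, 1, 4 and 5 in DAOY at an unadjusted p below 0.05. Across all genes 2241 of 14106 in U87 mg and 3502 of 15396 in DAOY had such a p. For FOXO targets the median log2 change was -0.05 in U87 mg and -0.04 in DAOY, where FOXO1 fell.

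Between the lines at 0 h, where 32.8% of all genes were higher in DAOY and 27.9% lower, the same lists held calls in both directions, with 5 higher and 5 lower in DAOY of 18 FOXO targets, 10 and 5 of 23 PI3K regulators, 8 and 13 of 40 mTORC1 inputs, 5 and 1 of 10 assembly genes, 7 and 5 of 26 substrates and 5 and 9 of 21 AKT interactors. The FOXO targets with the largest differences did not go one way. TXNIP, an inhibitor of thioredoxin and glucose uptake, was 6.33, 4.66 and 2.64 CPM in DAOY and 268, 279.8 and 305 CPM in U87 mg (log2 fold change -5.97 ± 0.93 (SE), edgeR BH-adjusted p = 2.60e-05). KLF9 (log2 fold change +3.89 ± 0.36 (SE), edgeR BH-adjusted p = 7.42e-08) and BCL2L11, the pro-apoptotic BIM (log2 fold change +2.86 ± 0.25 (SE), edgeR BH-adjusted p = 3.71e-08), were higher in DAOY. TRIB2 was higher in DAOY (log2 fold change +2.61 ± 0.17 (SE), edgeR BH-adjusted p = 1.22e-09) and TRIB3 lower (log2 fold change -2.35 ± 0.40 (SE), edgeR BH-adjusted p = 5.95e-05). DDIT4 (REDD1), a stress-induced activator of the TSC complex, was 13.3, 10.9 and 13.7 CPM in DAOY and 121, 82.1 and 163 CPM in U87 mg (log2 fold change -3.28 ± 0.48 (SE), edgeR BH-adjusted p = 1.51e-05), and its relative DDIT4L was also lower in DAOY (log2 fold change -3.35 ± 0.48 (SE), edgeR BH-adjusted p = 9.92e-06). NPRL3, a GATOR1 subunit, was higher in DAOY (log2 fold change +2.90 ± 0.35 (SE), edgeR BH-adjusted p = 1.55e-06). NDRG1, read as a marker of SGK1 and mTORC2 activity when phosphorylated, was lower in DAOY (log2 fold change -3.61 ± 0.72 (SE), edgeR BH-adjusted p = 0.000323), and the autophagy kinase ULK2 was higher (log2 fold change +2.23 ± 0.20 (SE), edgeR BH-adjusted p = 5.04e-08). Of the PI3K regulators, GRB14, an adaptor that inhibits the insulin receptor, was lower in DAOY (log2 fold change -3.76 ± 0.31 (SE), edgeR BH-adjusted p = 1.49e-08). PIP5K1B and PIK3AP1, with larger differences in that list, were higher in DAOY, at 0 to 3 counts per U87 mg library (log2 fold change +4.96 ± 0.74 (SE), edgeR BH-adjusted p = 1.70e-05 and log2 fold change +4.39 ± 0.58 (SE), edgeR BH-adjusted p = 8.40e-06). RHEBL1, a RHEB relative, and PRR5L, an mTORC2-associated protein, were also higher in DAOY (log2 fold change +3.51 ± 0.45 (SE), edgeR BH-adjusted p = 3.14e-06 and log2 fold change +1.86 ± 0.28 (SE), edgeR BH-adjusted p = 1.57e-05). TCL1A, a coactivator of AKT, had 0 or 1 count in every U87 mg library and 8 to 56 counts in the DAOY libraries.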

How the data were processed

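Poly(A) RNA of U87 mg and DAOY aggregates was sequenced single-end (stranded kit, strand option not given in the sources used here). Per the labels and the study's methods, the authors trimmed reads, assigned them to GENCODE 24 transcripts (GRCh38.p5) with Kallisto 0.43.0, and deposited estimated counts and TPM per transcript and sample. The deposited p-values, q-values and fold changes from Sleuth 0.28.1 were not used. Estimated counts were summed by gene name and rounded.

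Genes passing filterByExpr were tested with edgeR 4.0.16 (R 4.3.3; TMM scaling, quasi-likelihood test, Benjamini-Hochberg adjustment over all genes; call, adjusted p below 0.05, with a count at 2-fold beside it). Field comparisons used the 9 samples of a line, and line differences and interactions all 18. The SE is the log2 fold change divided by the root of F. Exact binomial intervals were at 95% and, like all depth statements (8341976 to 15610886 counts per library), cover counting error only. Coordinates came from GENCODE 29 (GRCh38) and promoters from RefSeq, which held 34 of the 37 members. The code was tested on simulated data.

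Members and lists were chosen with earlier results of these data known. Described singly were members called with the field, the up to 12 largest 2-fold line differences at 0 h, and PIK3CG, PIK3CA, AKT1, AKT2 and MTOR. RICTOR was added after its values were seen. Outside the members, at most 3 called genes per list and comparison were named, and C12orf66 was matched to KICS2 by synonym. Alternatives were DESeq2 1.42.0, its size factors, no count filter, limma 3.58.1 on log2 TPM with pseudocounts of 1 and 0.1, a replicate block, protein-coding transcripts only, other sample sets, each replicate left out, and, added later, the GC trend (lowess, span 0.3) removed and replicate 0 at 0 h of both lines left out.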

Additional observations from a re-analysis of the deposited data

How the results depend on the processing

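The limits are 3 replicates per condition, a control library in each line that differs in GC content, and field and channel time that cannot be told apart. Between the lines, the count of members called was 18 to 21 at 0 h, 19 to 25 at 2 h and 16 to 19 at 8 h when 1 library was left out, and at 2-fold it was 11, 7 and 8. For U87 mg at 2 h it was 0 to 6 (6 without 0 h replicate 0). For U87 mg at 8 h it was 0 to 3 with 1 library left out, 2 with DESeq2 and 2 with no count filter, 0 with limma at either pseudocount, 0 from the samples compared alone, 4 with the GC trend removed and 0 at 2-fold. For DAOY at 8 h it was 0 to 2 with 1 library left out, 0 with limma at either pseudocount, 1 from the samples compared alone (PIK3CD, none of the 3 called before), 4 (PIK3CD added) with DESeq2, its size factors, no count filter or all 18 samples in one fit, 11 with the GC trend removed and 1 at 2-fold. The difference of the 8 h changes called 1 member with no count filter and 0 otherwise. AKT1 at 0 h ranged from -0.12 to 0.45 on the log2 scale with 1 library left out, and turned to -0.08 without U87 mg replicate 0 and -0.12 without DAOY replicate 1. AKT2 ranged from -0.44 to 0.17, and turned to 0.46 and 0.47 with limma, 0.05 and 0.03 without U87 mg replicate 1 or 2, 0.17 without DAOY replicate 0 and 0.10 with the GC trend removed. The cause was not tested. Same-numbered replicates correlated at -0.321 to 0.637, and the labels do not say what they share besides the number. Their median correlation was 0.192 in U87 mg and -0.006 in DAOY, against -0.05 and -0.161 for replicates of different number. Whether the numbers mark a pairing was not tested. With a replicate block the counts were 21, 22 and 18 between the lines at 0, 2 and 8 h, 0 at 2 h in either line, 1 in U87 mg and 2 in DAOY at 8 h, where TSC1 (edgeR BH-adjusted p = 0.0502) and PIK3R1 (edgeR BH-adjusted p = 0.0727) were not called and PIK3CD (edgeR BH-adjusted p = 0.0392) was.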

Other observations

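A few pathway genes outside the members, picked after their values were seen, differed between replicates of 1 group. NDRG1 was at 37.1, 38.8 and 472 CPM in DAOY at 8 h, TXNIP at 2.03, 4.62 and 71.3 CPM and DDIT4 at 19.7, 9.89 and 41.2 CPM, with replicate 2 the highest for each of the 3 genes. In U87 mg at 8 h, replicate 0 was the highest for NDRG1 (642, 251 and 326 CPM) and DDIT4 (111, 37.4 and 37.4 CPM). For TXNIP, replicate 1 was the highest there (169, 226 and 163 CPM). NDRG1 is a target of SGK1, TXNIP an inhibitor of thioredoxin and DDIT4 an activator of the TSC complex.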
